A study of Rattus norvegicus with 29 samples.

Results

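Alcohol-preferring (P) rats, a line bred for voluntary ethanol drinking, had either limited or continuous access to ethanol, and transcripts of the nucleus accumbens shell were compared directly between both schedules. The comparison takes the 10 arrays whose titles name limited ethanol and the 10 whose titles name continuous ethanol, 20 of the 29 arrays in the series, and 21729 of its 31099 probe sets, those that are not array controls and whose mean over all arrays exceeded 6.86 on the log2 scale. The other 9 arrays are from P rats given water and no ethanol. All rats are of the same selected line, so no group is an unselected rat. Each array measured total RNA of 1 sample. The labels used here give no sex, age, hours of access, amount of ethanol drunk or time of tissue collection, and they do not say that each sample is a separate animal. Each p-value is therefore set by the spread among the arrays of a group, some of which may be technical. The design text names 10 samples per group, and a water sample was not analysed here.

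The accumbens shell is the medial part of the ventral striatum. Most of its neurons are GABAergic medium spiny neurons, which receive glutamate from cortex, hippocampus, amygdala and thalamus and dopamine from the midbrain, and which express dopamine receptors and opioid or tachykinin peptide genes. When such neurons are strongly driven, immediate early genes are transcribed within minutes. They include Fos and Nr4a1 and genes of synaptic proteins such as Arc and Homer1. Homer1 encodes a scaffold of the postsynaptic density that binds group I metabotropic glutamate receptors and links them to Shank proteins and to calcium channels of internal stores. It gives rise to long, constitutive transcripts and to short ones that neuronal activity induces. Which of these each probe set reads is not given in the sources used here.

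The promoters of 5 genes are shown because Homer1 was the gene called in this comparison, while Nr4a1, Ier2, Dusp1 and Gadd45g were activity-induced genes with lower values under limited access at an unadjusted p under 0.05. These 4 were picked after their values were seen, and Fos, Cebpd and Jun, which had such values too, are named only. Each sequence is the 250 bases before the annotated start, from RefSeq on build GRCr8, read on the gene's strand. It was searched on both strands for TGACGTCA (the cAMP response element), its half-site TGACG, which the full element contains, TGACTCA (the AP-1 element) and CACGTG (an E-box). Capitals mark every match. The Homer1 stretch at chr2:26278762-26279011, plus strand, held 0 matches. The Nr4a1 stretch at chr7:134259888-134260137, plus strand, held 4 half-sites and no full element; on the printed strand these read CGTCA. The Ier2 stretch at chr19:40399123-40399372, plus strand, held a full cAMP response element. The Dusp1 stretch at chr10:17184603-17184852, plus strand, held a full cAMP response element, a further half-site and an E-box. The Gadd45g stretch at chr17:13530352-13530601, minus strand, held an E-box. Among 33469 promoters of this length in the RefSeq table, TGACGTCA was present in 1.59%, TGACG in 18.2%, TGACTCA in 4.05% and CACGTG in 5.59%.
Homer1: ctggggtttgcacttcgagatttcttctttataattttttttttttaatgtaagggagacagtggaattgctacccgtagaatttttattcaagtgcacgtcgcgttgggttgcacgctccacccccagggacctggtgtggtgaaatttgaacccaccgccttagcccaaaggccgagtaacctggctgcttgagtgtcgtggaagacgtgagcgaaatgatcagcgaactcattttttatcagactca
Nr4a1: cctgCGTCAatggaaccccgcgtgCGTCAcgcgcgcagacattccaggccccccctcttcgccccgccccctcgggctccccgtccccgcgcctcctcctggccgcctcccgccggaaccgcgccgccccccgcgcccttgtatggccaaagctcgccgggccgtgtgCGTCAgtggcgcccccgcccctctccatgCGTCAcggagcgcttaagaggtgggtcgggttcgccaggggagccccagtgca
Ier2: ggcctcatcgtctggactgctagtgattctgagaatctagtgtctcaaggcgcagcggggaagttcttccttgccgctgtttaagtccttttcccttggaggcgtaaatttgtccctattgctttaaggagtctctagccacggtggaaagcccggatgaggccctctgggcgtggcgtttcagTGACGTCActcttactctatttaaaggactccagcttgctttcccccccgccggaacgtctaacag
Dusp1: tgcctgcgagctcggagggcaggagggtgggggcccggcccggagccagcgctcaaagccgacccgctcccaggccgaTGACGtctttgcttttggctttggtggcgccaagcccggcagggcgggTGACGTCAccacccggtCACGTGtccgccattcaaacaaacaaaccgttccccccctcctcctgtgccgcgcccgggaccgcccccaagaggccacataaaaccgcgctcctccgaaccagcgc
Gadd45g: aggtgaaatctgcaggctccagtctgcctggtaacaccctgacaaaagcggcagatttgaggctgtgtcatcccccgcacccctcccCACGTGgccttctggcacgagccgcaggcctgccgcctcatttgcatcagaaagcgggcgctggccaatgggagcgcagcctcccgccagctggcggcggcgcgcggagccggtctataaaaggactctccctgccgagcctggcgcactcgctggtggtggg

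The deposited values come from RMA, a normalization that makes array distributions nearly equal, so the array medians, from 8.17 to 8.21, say little about level. There were 0 identical pairs of arrays, and correlations lay between 0.971 and 0.997 over the tested probe sets. For beta-actin, the log2 signal at its 3 prime end minus that at its 5 prime end, which rises as RNA degrades or labelling shortens, was 1.168 ± 0.09 (SD) in limited, 1.271 ± 0.076 in continuous and 1.195 ± 0.047 in water arrays (permutation p = 0.0144, adjusted p = 0.216 over 15 array measures of level, spread, RNA quality and summed cell type markers). The same measure of GAPDH differed by -0.021 (p = 0.347). On the second principal component, which held 16.5% of the variance, 5 arrays lay at scores from -22.2 to -15.6 and the rest from -3.30 to 20.2. These 5 were limited replicates 6 and 7 and water replicates 2, 5 and 6, with 0 continuous arrays among them. What sets them apart was not tested. Fits with RNA quality or the array's SD as a covariate, and without these 5 arrays, are given below. Why values changed in those fits was not tested.

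Of the 21729 probe sets, 1 passed an adjusted p of 0.05 in limma (0.0046%), a Homer1 probe set that was higher under limited access, and 0 were lower. No other transcript passed, although 2022 probe sets (9.31%) had an unadjusted p under 0.05. Of those, 774 (3.56% of all tested) were higher and 1248 (5.74%) lower under limited access. This excess of lower values depended on the scaling and the filter, and it shrank without 1 continuous array. With quantile normalization applied again to the deposited values, 917 were higher and 975 lower. With no brightness filter 1516 were higher and 1404 lower, and with the dimmest 50 percent dropped 368 and 1032. Without continuous replicate 4 the counts were 792 and 898, with 46.9% higher against 38.3% with all arrays. In the other fits without a single array the share of higher values lay between 37.2% and 41.3%. The median difference over all probe sets was -0.005 on the log2 scale.

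The differences between both schedules were small. The median standard error (SE) of a difference was 0.05, and the 95% interval extended a median of 0.11 to each side of it. For 15376 probe sets (70.8%) the whole interval lay within 0.2 of zero on the log2 scale, which bounds the ratio of both groups at 1.15-fold in either direction. For 19746 (90.9%) it lay within 0.3. A difference beyond 0.3 was seen in 64 probe sets and one beyond 0.5 in 10, of which 5 had an unadjusted p under 0.05. In 0 probe sets did all limited arrays lie to one side of all continuous arrays.

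**Figure D1:**
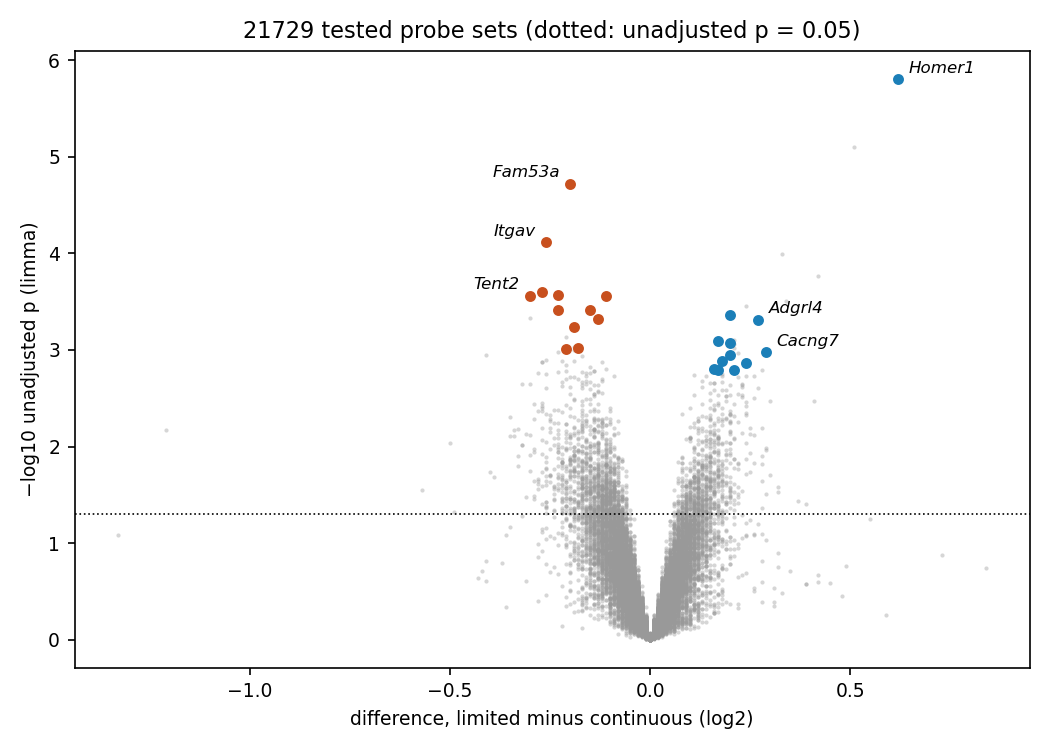
Difference between limited and continuous access (x axis, log2 scale) against the unadjusted p of limma (y axis, as its negative log10) for the 21729 tested probe sets. Blue and orange mark the 12 genes of smallest p that were higher and the 12 that were lower under limited access; Homer1, at 0.62, was the only probe set past the adjusted threshold.

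Homer1 was read by 5 tested probe sets with this gene as their only symbol, and they did not move together. On 1370454_at, Homer1 rose under limited relative to continuous access. The 10 continuous arrays had a lowest value of 9.19, a median of 9.42 and a highest of 9.81 on the log2 scale. The 10 limited arrays had a lowest of 9.70, a median of 10.1 and a highest of 10.5. The groups overlapped at one edge: 8 limited arrays lay above all continuous arrays, and 8 continuous arrays lay below all limited ones. The means were 9.47 ± 0.21 (SD, n = 10) and 10.09 ± 0.25 (SD, n = 10), a difference of 0.62 ± 0.10 (SE, adjusted p = 0.034 in limma), with 10 of 10 limited arrays above the continuous mean. As a ratio this was 1.53-fold (95% interval 1.32 to 1.77). A two-sided permutation test of this probe set alone, over 100000 resamples of the 20 arrays, gave p = 0.00012. That p is not adjusted for the number of probe sets. It comes from the arrays that picked this one, so it is no independent support for the call. The 9 water arrays had a mean of 10.26 ± 0.27 (SD), with values from 9.77 to 10.68, so the limited arrays lay between continuous and water in mean and overlapped the water arrays over most of their range.

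The call of 1370454_at was close to the threshold. It was lost when any of 12 of the 20 arrays was left out, namely continuous replicates 1, 2, 4, 6, 8, 9 and 10 or limited replicates 3, 4, 6, 7 and 10, with differences from 0.57 to 0.62 and adjusted p between 0.0612 and 0.115. Limited replicates 6 and 7 stood apart from the other limited arrays across the whole profile. The call was also lost with an RNA quality covariate, the mean of the beta-actin and GAPDH measures (0.66, adjusted p = 0.129 in limma). It was lost too with the array's SD as a covariate (0.61, 0.185) and without the 5 arrays apart (0.55, 0.628). Without limited replicates 6 and 7 the difference was 0.55 (adjusted p = 0.32). An exact two-sided permutation test of 8 limited against 10 continuous arrays gave p = 0.000274. This p is not adjusted for the number of probe sets and comes from arrays that picked the probe set, so it does not restore the call.

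The remaining Homer1 probe sets did not pass. On 1370997_at the continuous arrays had a lowest value of 9.52, a median of 10.49 and a highest of 10.68, and the limited arrays had 9.62, 10.29 and 11. The groups overlapped almost throughout, with a difference of -0.13 ± 0.15 (SE, adjusted p = 0.802) and a 95% interval from -0.43 to 0.17. The water arrays were lower on it, with values from 9.20 to 10.0. Continuous replicate 7 was the lowest of its group, and the difference was -0.23 without it (adjusted p = 0.552). Probe sets 1368318_at, 1370656_a_at and 1368319_a_at had differences of 0.08 ± 0.05, 0.08 ± 0.07 and 0.06 ± 0.09 (adjusted p = 0.605, 0.764 and 0.863). For these 3 the means of the groups lay within 0.08 of each other, at 11.48 (continuous), 11.56 (limited) and 11.50 (water) for 1368318_at.

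Within an array, the value of 1370454_at minus that of 1370997_at set the groups in an order that was looked at after the values were seen and is given as a description. It lay below 0 in 9 of 10 continuous arrays (lowest -1.40, median -1.07, highest 0.19), below 0 in 8 of 10 limited arrays (-0.62, -0.25 and 0.55) and above 0 in 9 of 9 water arrays (0.12, 0.67 and 0.96). Since a probe set's level depends on its probes, the sign of this value has no meaning of its own, and only its order over the groups can be read.

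**Figure D2:**
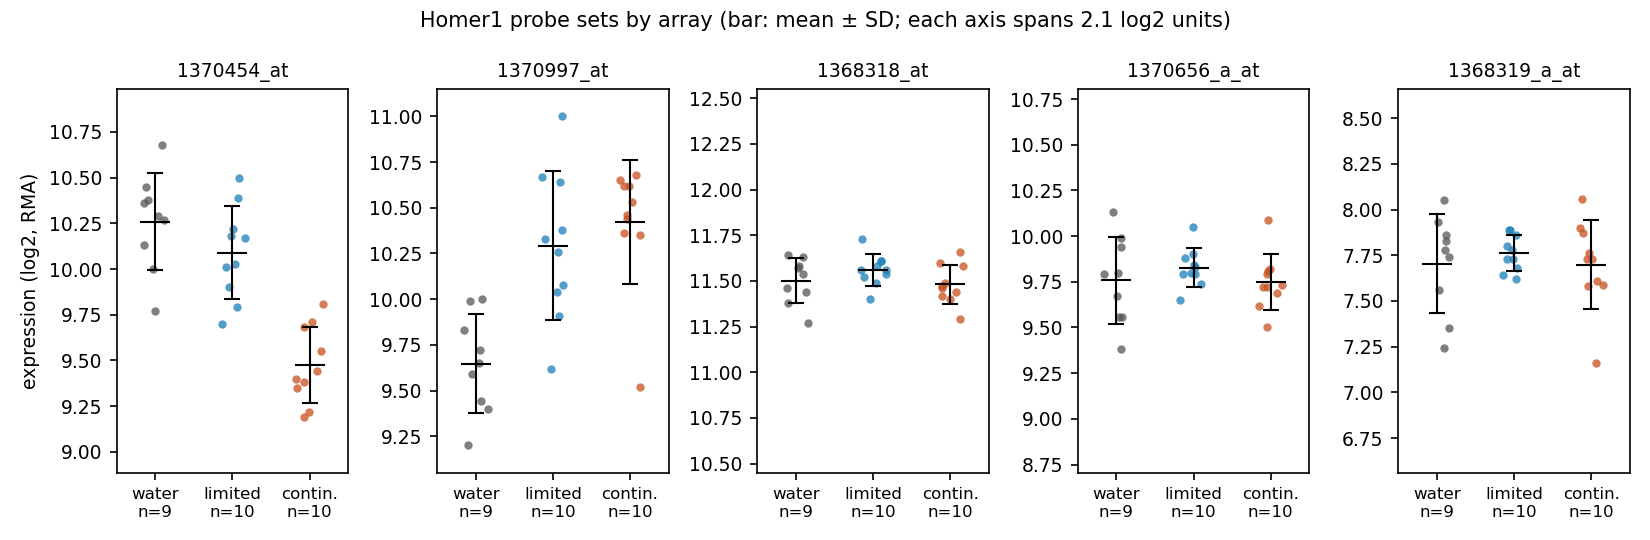
Values of the 5 Homer1 probe sets (y axes, log2 expression, each spanning 2.1 units) in each water, limited and continuous array, with the mean and SD as bars. The limited arrays of 1370454_at lie from 9.70 to 10.5 against 9.19 to 9.81 for continuous arrays, overlapping at one edge, while on the other 4 probe sets both ethanol groups overlap over most of their range.

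In the list of the Homer and Shank complex, which includes Homer1, 15 genes were tested by their brightest probe set. None passed the adjusted threshold, 0 were higher and 1 was lower at an unadjusted p under 0.05, and the list median was 0.01. Over all 11328 genes judged the same way, 0 passed the adjusted threshold, 343 (3.03%) were higher and 723 (6.38%) lower at an unadjusted p under 0.05, together 9.41%, and the median was -0.01. Homer1 entered this count by its brightest probe set, 1368318_at, not by the one that was called. The lower member was Dlg4, which encodes the scaffold PSD-95, at -0.10 ± 0.03 (SE, adjusted p = 0.526 in limma) on its brightest probe set. Its other 3 probe sets had positive differences, from 0.04 to 0.14. Ryr2, a calcium release channel that Homer proteins bind, had a difference of 0.07 ± 0.04.

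Among genes that neuronal activity induces, a few members had lower values under limited access and none passed the adjusted threshold in limma. Of 22 immediate early transcription factors, 0 were higher and 5 lower at an unadjusted p under 0.05 (all genes: 3.03% and 6.38%). The list median was -0.01. The lower members were Cebpd, Fos, Ier2, Nr4a1 and Jun, the last of them named after its values were seen. With limited replicates 6 and 7 left out the counts were 0 and 4, while those over all genes were 99 higher (0.874%) and 246 lower (2.17%).

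Fos encodes the partner with which Jun forms AP-1, a dimeric transcription factor. On its brighter probe set, 1375043_at, the continuous arrays had a lowest value of 10.50, a median of 11.03 and a highest of 11.41, and the limited arrays 10.08, 10.76 and 11.15. The difference was -0.34 ± 0.12 (SE, p = 0.00781, adjusted p = 0.526 in limma), with 9 of 10 limited arrays below the continuous mean. It was -0.23 ± 0.11 without limited replicates 6 and 7. The ranges of the groups overlapped, and the water mean of 10.26 lay below that of limited access, 10.71. The dim Fos probe set 1371283_at had a difference of the other sign, 0.17 ± 0.05 (p = 0.00374, adjusted p = 0.526), at means of 7.06 in continuous, 7.24 in limited and 7.07 in water arrays.

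Nr4a1, an orphan nuclear receptor, ranged from 10.44 to 11.28 (median 11) in continuous and from 10.34 to 11.13 (median 10.72) in limited arrays. Its difference was -0.23 ± 0.09 (SE, p = 0.016, adjusted p = 0.526 in limma), beside a water mean of 10.27. The difference of Ier2, an immediate early nuclear protein whose promoter is shown above, was -0.18 ± 0.07 (adjusted p = 0.526), with 8.50, 8.80 and 8.99 as the lowest, median and highest continuous values and 8.25, 8.59 and 8.79 as the limited ones. Cebpd, a bZIP transcription factor, had a difference of -0.17 ± 0.06 and Jun, a partner of Fos in AP-1, one of -0.11 ± 0.05. In Fos, Nr4a1 and Ier2 the means stood in the order continuous, limited, water. In Cebpd the limited and water means were both 8.37.

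Of 23 activity-induced synaptic and signalling genes, 1 was higher and 2 were lower at an unadjusted p under 0.05 (all genes: 3.03% and 6.38%). The list median was -0.00. Without limited replicates 6 and 7 the counts were 1 and 3. Gadd45g, a stress sensor that takes part in active DNA demethylation, had a lowest value of 9.35, a median of 9.43 and a highest of 9.69 in continuous arrays and 9.11, 9.30 and 9.43 in limited arrays, a difference of -0.18 ± 0.05 (SE, p = 0.000951, adjusted p = 0.526 in limma) in 10 of 10 limited arrays. Its water mean was 9.11. Dusp1, a phosphatase that switches off MAP kinases, ranged from 10.99 to 11.61 (median 11.39) in continuous and from 10.76 to 11.37 (median 11.18) in limited arrays, a difference of -0.23 ± 0.08 (adjusted p = 0.526), with a water mean of 10.84. Arc, which controls the removal of AMPA receptors from synapses, had a difference of -0.19 ± 0.11 (p = 0.0998, adjusted p = 0.592), with continuous arrays from 10.05 to 10.68, limited arrays from 9.78 to 10.98 and a water mean of 9.79. Per2 was the higher member, a clock gene that activity and glucocorticoids also induce, at 0.15 ± 0.05 (adjusted p = 0.526). Its highest limited array was replicate 6 at 11.08, without which the difference was 0.11.

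The 24 genes of smallest p, 12 in each direction, had differences from 0.16 to 0.29 in size among the higher ones other than Homer1 and from -0.11 to -0.30 among the lower ones. None of these 23 passed the adjusted threshold, and each kept its sign without limited replicates 6 and 7. They were chosen by this contrast, so their sizes, their kept signs and the order of their groups are a description. Of the genes other than Homer1, 14 had further tested probe sets, 19 in all, of which 13 had the same sign. An unadjusted p under 0.05 was reached by 2 of them, 1393226_at of Itgav with the same sign and 1377402_at of Cdk10 with the opposite sign.

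Among the higher genes, Adgrl4 encodes an adhesion receptor of endothelial cells. Its continuous arrays had a lowest value of 8.37, a median of 8.64 and a highest of 8.80, its limited arrays had 8.71, 8.85 and 9.20, and the difference was 0.27 ± 0.07 (SE, adjusted p = 0.526 in limma) in 10 of 10 limited arrays. Hspa12b, a distant relative of the HSP70 chaperones that endothelial cells express, ranged from 7.16 to 7.51 in continuous and from 7.39 to 7.75 in limited arrays, a difference of 0.20 ± 0.06. Cacng7, an auxiliary subunit of AMPA receptors, had a difference of 0.29 ± 0.08, with limited replicate 6 far above its group at 7.75, and one of 0.22 without that array. Nbeal2, a BEACH domain protein of granule trafficking, had a difference of 0.20 ± 0.05 and 0.07 ± 0.04 on its other probe set. Crb3, a cell polarity protein, had 0.20 ± 0.05, and 0.06 and 0.11 on 2 further probe sets.

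The remaining higher genes were Dmxl1 (0.24 ± 0.07), a regulator of the vacuolar proton pump, Pkd2 (0.21 ± 0.06), a polycystin cation channel, Rnf215 (0.17 ± 0.05), a RING finger gene, Myo5c (0.17 ± 0.05), an unconventional myosin, Ralgapa1 (0.16 ± 0.05), a GTPase-activating protein for Ral, and Cdk10 (0.18 ± 0.05), a cyclin-dependent kinase. Their probe sets did not all point one way. A brighter Cdk10 probe set, 1377402_at, had a difference of -0.12 ± 0.05 (adjusted p = 0.529), and the brightest probe sets of Rnf215, Ralgapa1 and Pkd2 had -0.05, -0.06 and -0.00. Further probe sets had -0.01 for Cdk10, 0.06 for Ralgapa1, 0.07 for Myo5c and -0.03 for Dmxl1. None of these probe sets was called.

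Among the lower genes, Fam53a had the smallest p. Its continuous arrays had a lowest value of 8.45, a median of 8.52 and a highest of 8.65, and its limited arrays 8.2, 8.35 and 8.54, a difference of -0.20 ± 0.04 (SE, adjusted p = 0.138 in limma) in 9 of 10 limited arrays. The water arrays lay from 8.30 to 8.49. With single arrays left out its adjusted p ranged from 0.0172 to 0.435, and it passed in 1 of 20 such fits, that without limited replicate 8. It passed in 0 of 14 other alternatives. Itgav encodes the integrin subunit alpha V, a receptor for vitronectin and other matrix proteins. It was lower on both of its probe sets. On 1383880_at, a dim one with a limited mean of 6.89, the difference was -0.26 ± 0.06 (adjusted p = 0.413). On the brighter 1393226_at the difference was -0.41 ± 0.11 (adjusted p = 0.526). On the latter the continuous arrays had a lowest value of 9.45, a median of 9.66 and a highest of 10.34, and the limited arrays 8.96, 9.47 and 9.70, each of the limited arrays below the continuous mean.

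Rbm3, a cold-inducible RNA-binding protein, ranged from 11.09 to 11.54 (median 11.31) in continuous and from 10.91 to 11.28 (median 11.06) in limited arrays, a difference of -0.23 ± 0.06 (SE, adjusted p = 0.526 in limma) in 10 of 10 limited arrays. Cirbp, the other member of that class, had a difference of -0.07 ± 0.07. Tent2, a cytoplasmic poly(A) polymerase, ranged from 8.79 to 9.10 in continuous and from 8.21 to 8.89 in limited arrays, with a difference of -0.30 ± 0.07 on 1374753_at and -0.12 ± 0.09 on its other probe set. Without limited replicates 6 and 7 the first of these was -0.22. Orc6, a subunit of the origin recognition complex, had -0.23 ± 0.06 and -0.16 ± 0.09 on its 2 probe sets.

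The other lower genes had smaller differences, or lower values on 1 probe set out of several. Lhfpl2, a tetraspan membrane protein, had -0.27 ± 0.07 on its dimmest probe set and -0.05 and -0.11 on the others. Ipo8, a nuclear import receptor, had -0.21 ± 0.06 against -0.03 on a brighter probe set, and Pcbp2, an RNA-binding protein of the KH family, had -0.15 ± 0.04 against -0.04 on each of 2 others. Toe1, a nuclear deadenylase, had -0.19 ± 0.05, Uchl5, a deubiquitinase of the proteasome, -0.13 ± 0.03, and Slc35b2, a transporter of the sulfate donor into the Golgi, -0.11 ± 0.03.

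**Figure D3:**
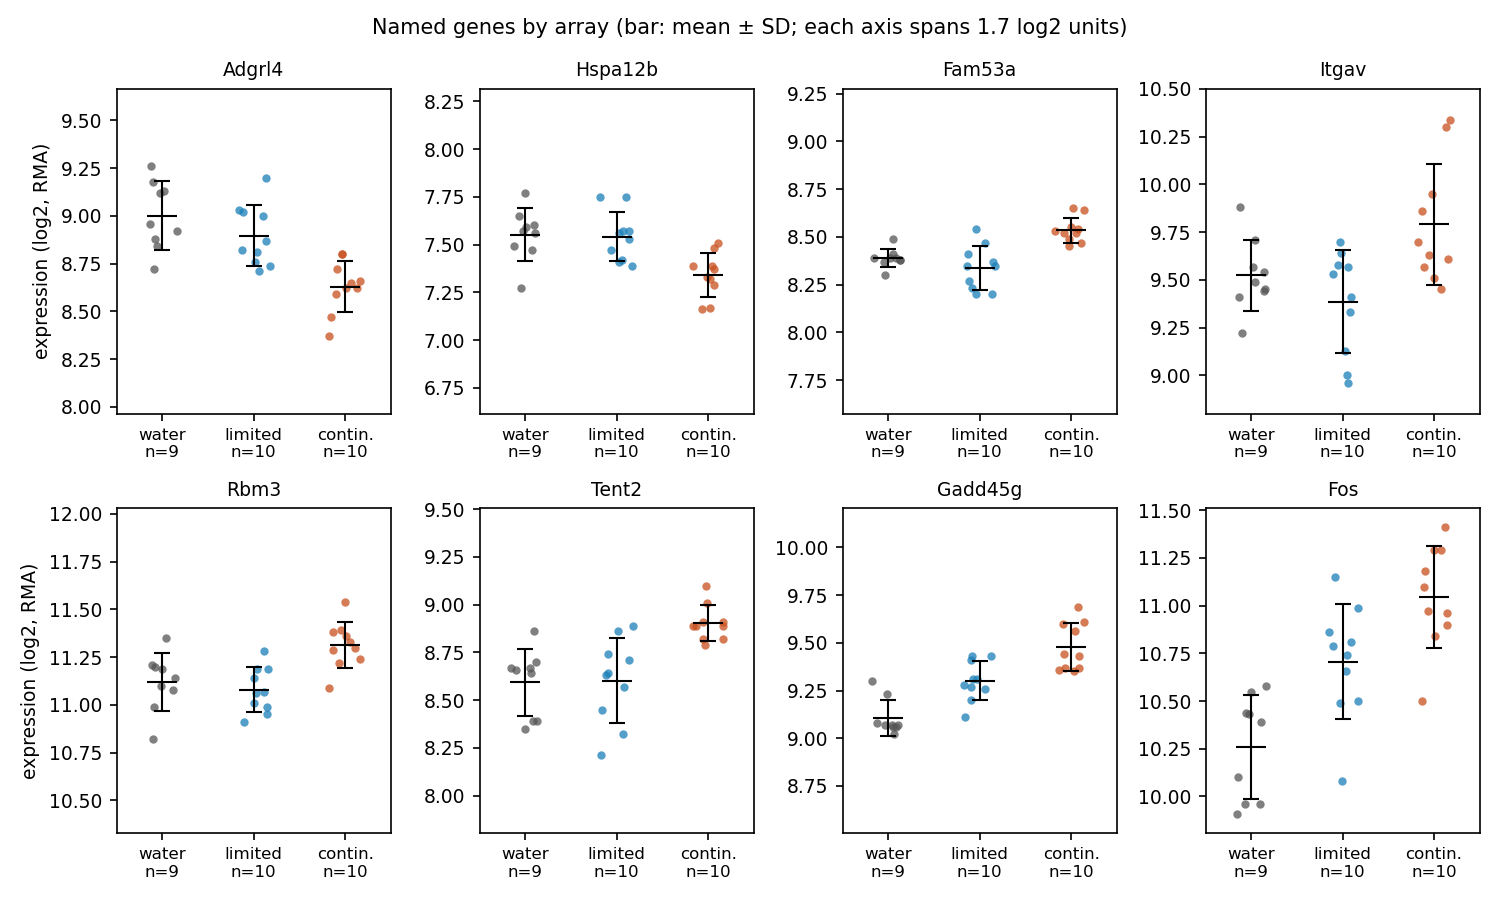
Values of Adgrl4, Hspa12b, Fam53a, Itgav (1393226_at), Rbm3, Tent2, Gadd45g and Fos (1375043_at) in each array (y axes, log2 expression, each spanning 1.7 units), with the mean and SD as bars. In each panel the limited and continuous ranges overlap; for Adgrl4 they are 8.71 to 9.20 and 8.37 to 8.80.

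Probe sets without a single gene symbol held a further pair of small p-values, both picked after their values were seen. Probe set 1396854_at had a lowest value of 8.63, a median of 9.19 and a highest of 9.45 in continuous arrays, 9.26, 9.77 and 10.01 in limited arrays, and a water mean of 9.89. Its difference was 0.51 ± 0.09 (SE, adjusted p = 0.0866 in limma). Probe set 1380527_at had 0.33 ± 0.07 (adjusted p = 0.445), with means of 8.01 in continuous, 8.34 in limited and 8.65 in water arrays.

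Genes of medium spiny neurons and of dopamine signalling gave small differences. Of 18 medium spiny neuron markers tested, 15 had a positive difference, as had 4984 of all 11328 genes. An unadjusted p under 0.05 was reached by 1 marker, against 9.41% of all genes. The list median was 0.06 against -0.01 over all genes, and 0.03 without limited replicates 6 and 7. The dopamine receptor genes Drd1 and Drd2 had differences of 0.06 ± 0.06 (95% interval -0.06 to 0.17) and 0.06 ± 0.06 (-0.07 to 0.19), and a second Drd1 probe set had 0.11 ± 0.07. The peptide precursor genes Penk (enkephalin) and Tac1 (substance P) had 0.04 ± 0.05 (-0.06 to 0.14) and 0.02 ± 0.05 (-0.09 to 0.13). Pdyn, the dynorphin precursor, had 0.07 ± 0.09 on its brighter and 0.16 ± 0.13 on its dimmer probe set.

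Of 25 genes of dopamine and cAMP signalling, 2 were higher and 0 lower at an unadjusted p under 0.05 (all genes: 3.03% and 6.38%). The list median was 0.04. The higher genes were Prkacb (0.08 ± 0.04), a catalytic subunit of protein kinase A, and Rasd2 (0.13 ± 0.06), a striatal GTPase also counted among the neuron markers. Neither had an unadjusted p under 0.05 without limited replicates 6 and 7, at 0.07 for Prkacb and 0.08 for Rasd2. Of 20 opioid and other neuropeptide genes and their receptors, 0 were higher and 1 was lower, Npy1r (-0.10 ± 0.05), a receptor of neuropeptide Y. Oprk1, the kappa opioid receptor gene, had 0.16 ± 0.08 (adjusted p = 0.546 in limma) on its brightest probe set. Bdnf, a neurotrophin gene, had 0.06 ± 0.09 and 0.10 ± 0.05 on its 2 probe sets (adjusted p = 0.859 and 0.53).

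Receptors and channels showed the same scale of difference. Of 16 ionotropic glutamate receptor genes and 14 GABA receptor, synthesis and transport genes, 0 had an unadjusted p under 0.05 (all genes: 9.41%). Their medians were 0.01 and 0.02. The glutamate receptor list spanned -0.09 to 0.21, with the AMPA receptor auxiliary subunit Cacng8 highest, and Cacng8 was 0.12 without limited replicate 6. Of 21 potassium channel genes 1 was lower, Kcnma1 (-0.12 ± 0.06, and 0.10 on a dimmer probe set), which encodes the large-conductance calcium-activated channel, a target of ethanol. Of 22 genes of vesicle release 1 was lower, Vamp2 (-0.17 ± 0.08), a SNARE protein. Both counts were 0 without limited replicates 6 and 7, at -0.07 for Kcnma1 and -0.10 for Vamp2.

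Genes that process ethanol had small differences. The 11 tested genes of ethanol, acetaldehyde and acetate metabolism had differences between -0.07 and 0.03. Of these, 0 had an unadjusted p under 0.05, against 9.41% of all genes, so in a list this short the count says little. Adh5, the class III alcohol dehydrogenase, had -0.06 ± 0.03 (SE, adjusted p = 0.553 in limma) and Cat, the catalase that oxidises ethanol in brain, -0.06 ± 0.06. Of 25 antioxidant genes 1 was higher (all genes: 3.03%), the heme oxygenase Hmox2 (0.06 ± 0.03, and 0.04 without limited replicates 6 and 7).

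Hormone, stress and clock genes had a few members with larger differences. Counts here are at an unadjusted p under 0.05, where 3.03% of all genes were higher and 6.38% lower. Of 20 glucocorticoid-responsive genes 1 was higher and 2 lower, with a median of 0.02, and the counts were 1 and 2 without limited replicates 6 and 7. Angptl4, an inhibitor of lipoprotein lipase, ranged from 8.74 to 9.0 in continuous and from 8.85 to 9.30 in limited arrays, a difference of 0.19 ± 0.06 (SE, adjusted p = 0.526 in limma). The lower members were Cebpd and Dusp1, given above. Of 32 chaperone genes 2 were higher and 1 lower, with a median of 0.03. Hspa1a, an inducible HSP70 chaperone with a near-identical neighbour that may share its signal, ranged from 8.24 to 8.78 (median 8.46) in continuous and from 8.45 to 9.56 (median 8.80) in limited arrays, a difference of 0.41 ± 0.13 (adjusted p = 0.526). Pdia4, a disulfide isomerase of the endoplasmic reticulum, had 0.14 ± 0.05, and Hspa2, a constitutive relative, -0.31 ± 0.14. The chaperone counts were 3 and 0 without limited replicates 6 and 7, with 0.08 for Pdia4 and -0.17 for Hspa2. Of 19 circadian clock genes 1 was higher and 2 lower, namely Per2, Cry2 (-0.09 ± 0.04) and Nr1d2 (-0.07 ± 0.03). Without those arrays the clock counts were 1 and 0, with 0.09 for Per2 and -0.04 for both Cry2 and Nr1d2.

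Adhesion and RNA-processing lists held more lower than higher members at an unadjusted p under 0.05, as did all genes tested (3.03% higher, 6.38% lower). Of 18 integrin and adhesion genes 0 were higher and 4 lower, with a median of -0.01, and the counts were 0 and 3 without limited replicates 6 and 7. They were Itgav, the cytoskeletal linker Tln2 (-0.17 ± 0.06, and 0.11 on a dimmer probe set), the focal adhesion kinase gene Ptk2 (-0.07 ± 0.03) and Itga6 (-0.12 ± 0.05), the last named after its values were seen. Of 19 polyadenylation genes 2 were higher and 4 lower, against 1 and 2 without those arrays. Tent5a, a poly(A) polymerase, was the member with the largest positive value, at 0.27 ± 0.08 on its brighter and -0.00 on its dimmer probe set, while Tent2 and the nuclear poly(A) polymerase Papolg (-0.18 ± 0.06) were among the lower ones. Tent5a was at 0.16 without limited replicates 6 and 7. None of these passed the adjusted threshold in limma.

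Housekeeping lists spanned narrow ranges, and their counts stand beside 3.03% higher and 6.38% lower over all genes. Of 30 proteasome genes 0 were higher and 4 lower at an unadjusted p under 0.05, with a median of -0.03 and Psmd12 (-0.15 ± 0.05), a subunit of the regulatory particle lid, the lowest of them. Without limited replicates 6 and 7 the counts were 0 and 1. Of 42 respiratory chain genes 1 was higher and 2 were lower, within -0.08 to 0.06. Of 25 ribosomal protein genes 0 were higher and 1 was lower, within -0.07 to 0.01. Of 22 cholesterol synthesis genes 1 was lower, Lss (-0.11 ± 0.05, and 0.12 on a dimmer probe set), the lanosterol synthase, with a median of -0.04. Of 23 chromatin genes 1 was lower, the histone deacetylase gene Hdac2 (-0.15 ± 0.06). The respiratory, ribosomal, cholesterol and chromatin lists held 0 such genes without limited replicates 6 and 7, Hdac2 was at -0.09 and Psmd12 at -0.10. Of 21 innate immune genes 2 were lower, and the count was 2 without those arrays. They were the interferon-induced Mx2 (-0.21 ± 0.06) and Ifit2 (-0.34 ± 0.12, with continuous arrays from 7.91 to 9.02 and limited ones from 7.5 to 8.36).

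**Figure D4:**
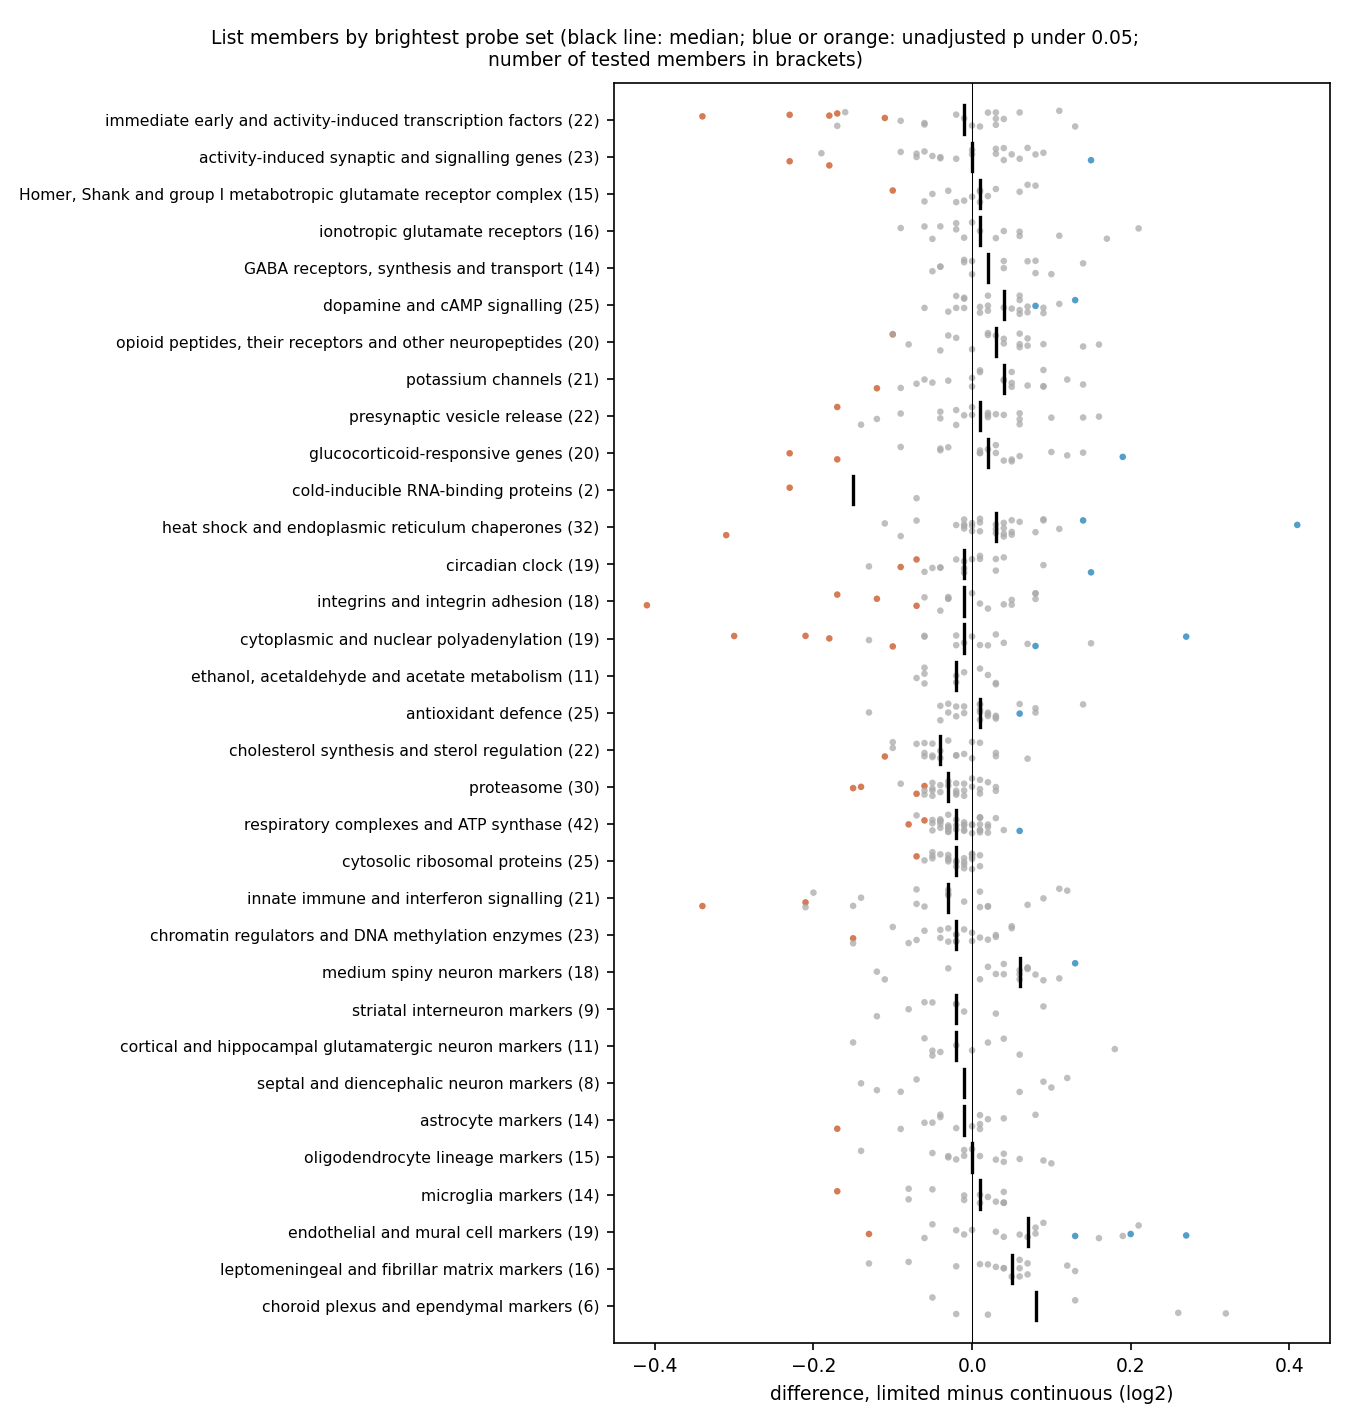
Difference between limited and continuous access (x axis, log2 scale) of each member of the 33 gene lists by its brightest tested probe set, with the list median as a black line. Blue and orange points had an unadjusted p under 0.05, 0 passed the adjusted threshold, and the medians lie between -0.15, for the 2 cold-inducible genes, and 0.08.

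Markers of other cell types were read beside these results, since in tissue a smaller number of cells of a type and less RNA per cell cannot be told apart. Of 19 endothelial and mural markers tested, 3 were higher and 1 lower at an unadjusted p under 0.05 (all genes: 3.03% and 6.38%). The list median was 0.07. The higher ones were Adgrl4, the receptor kinase gene Tie1 (0.20 ± 0.08) and the junction gene Esam (0.13 ± 0.06), and the lower one, named after its values were seen, was the VEGF receptor gene Flt1 (-0.13 ± 0.06). Without limited replicates 6 and 7 the counts were 1 and 0. The summed level of the 19 markers ranged from 13.844 to 14.092 in limited and from 13.675 to 13.964 in continuous arrays on the log2 scale (permutation p = 0.0471, adjusted p = 0.353 over the 15 array measures). This level differed by 0.065 without limited replicates 6 and 7 (exact permutation p = 0.115). Adgrl4 is one of the markers summed, and the part of this level in the values of Hspa12b was not tested.

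Of 14 astrocyte markers 1 was lower at an unadjusted p under 0.05 (all genes: 6.38%), Gfap (-0.17 ± 0.07). Of 14 microglia markers 1 was lower, Aif1 (-0.17 ± 0.08, and 0.09 on a dimmer probe set). Continuous replicate 7 was the highest of its group for both, and without it the differences were -0.11 and -0.12. The summed astrocyte level ranged from 16.948 to 17.065 in limited and from 16.972 to 17.237 in continuous arrays. Of 15 oligodendrocyte, 9 interneuron, 11 cortical and hippocampal, 8 septal and diencephalic and 16 leptomeningeal markers, 0 had an unadjusted p under 0.05, with medians between -0.02 and 0.05. Of 6 choroid plexus and ependymal markers 0 did either, against 9.41% of all genes. Their summed level reached 15.036 in limited replicate 9 and 13.357 in continuous replicate 10 against 11.211 to 12.28 in the other arrays of both groups. The list median was 0.08, and 0.2 without limited replicates 6 and 7.

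The number of probe sets at an unadjusted p under 0.05 rested largely on these arrays. It was 1138 without limited replicate 6, 1259 without limited replicate 7 and 676 without both, against 2022 with all arrays. With the RNA quality covariate it was 784, and with the array's SD as a covariate 558. The adjusted count was 0 in each of these alternatives. The spread within the limited group was smaller without them. The median SD of a probe set was 0.111 in limited and 0.104 in continuous arrays, and 0.09 in limited arrays without replicates 6 and 7.

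**Figure D5:**
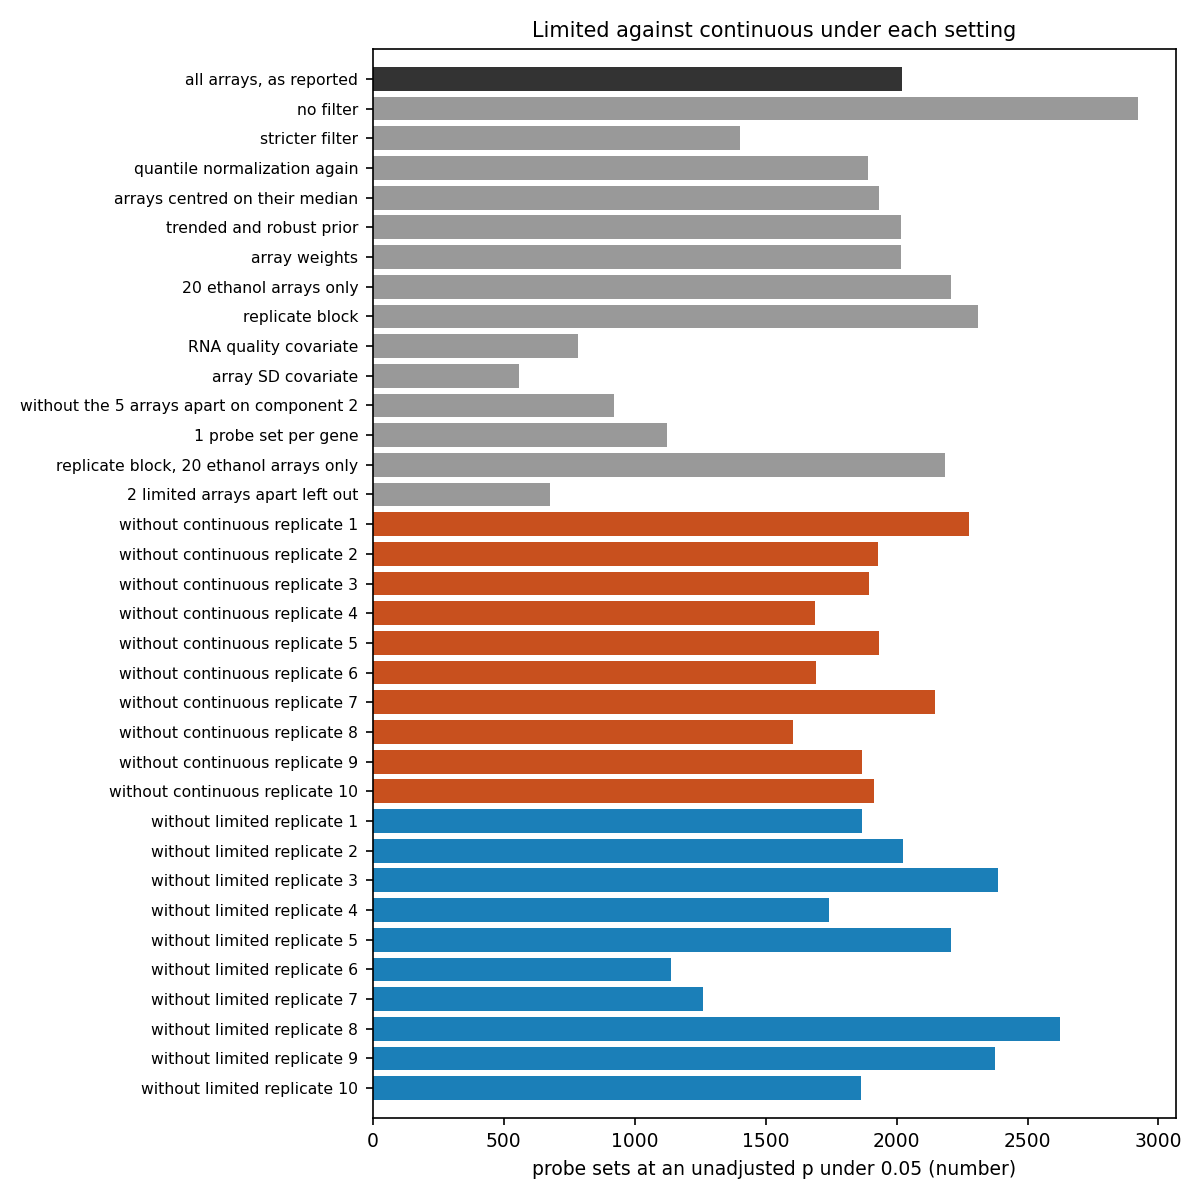
Number of probe sets at an unadjusted p under 0.05 in limma (x axis) under each setting of the fit (y axis), with all arrays as reported in black, other settings in grey, and single arrays left out in orange (continuous) and blue (limited). The number falls from 2022 to 1138 and 1259 when limited replicate 6 or 7 is left out, and to 676 without both.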

How the data were processed

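RNA of the nucleus accumbens shell was measured on 29 Affymetrix rat arrays (10 limited ethanol, 10 continuous ethanol, 9 water). The deposited values are log2 expression values that the authors made with RMA, per the submitters' processing notes (version not given in the sources used here). Base 2 was inferred from their range, 4.04 to 16.0. RMA makes array distributions nearly equal and would hide a shift common to every transcript. Precision is limited by how many arrays there are.

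Of 31099 probe sets, 57 controls and the dimmest 30 percent (mean over the 29 arrays) were dropped. A platform table gave 20832 probe sets 1 symbol, 436 several and 9831 none; 20764 were matched by gene ID to RefSeq (GRCr8) for current names. The 21729 tested probe sets included 15759 with 1 symbol, which stood for 11328 genes.

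All 29 arrays entered 1 fit of limma 3.58.1 in R 4.3.3 (lmFit, eBayes, group only), with the contrast limited minus continuous, two-sided, adjusted by Benjamini-Hochberg over the 21729 probe sets at 0.05. All p and adjusted p of genes are from it. Array measures and the called probe set were compared by permutation with scipy 1.17.1. A summed level is the log2 of the sum of the unlogged values. The fit was tested on simulated data.

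The named genes are every probe set past the threshold, the 12 genes of smallest p in each direction, up to 3 members of smallest p per list, every Homer1 probe set, and Fos, Nr4a1, Arc, Drd1, Drd2, Penk, Pdyn, Tac1 and Bdnf. The comparison, the 33 gene lists (23 of pathways or complexes, 10 of cell type markers) and the 5 arrays apart were chosen with earlier results of these data known, so a list's direction is not independent evidence. In lists, the brightest tested probe set stands for each gene.

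Alternatives were other filters, normalizations, priors, array weights, covariates, blocks and arrays left out. The replicate block with only the 20 ethanol arrays, leaving out limited replicates 6 and 7 together, and the principal component score were added after seeing the data. Replicate numbers did not pair the samples: same-numbered arrays of both groups had deviations that correlated at -0.162 to 0.343, with 2 of 10 pairs over 0.1.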

Additional observations from a re-analysis of the deposited data

Results flagged for a closer look

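The scan took 129 named probe sets and 15 array measures in 3 groups, 432 groups of values, and the second principal component. Single arrays lay apart from the rest of their group 47 times. Chance would give about 21.6 among the 432 if these were independent. They share arrays and marker genes, so no excess over chance can be read from this. Continuous replicate 7 lay apart 11 times, water replicate 2 did 8 times, limited replicate 6 did 7 times, continuous replicate 3 did 6 times and limited replicate 9 did 3 times. Values are on the log2 scale.

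Continuous replicate 7 was apart at 9.52 for Homer1 1370997_at, where the others of its group lay between 10.35 and 10.68. It was high for Gfap (13.96), Aif1 (10.82), Sdhc (12.66) and Fezf2 (8.27), and low for Npy (11.69), Kcna1 (9.82), Syt1 (11.44) and Tet1 (7.81). Its summed astrocyte and microglia marker levels were 17.24 and 14.7, against 16.97 to 17.05 and 14.19 to 14.43 in the others.

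Limited replicate 6 was high for Cacng7 (7.75, others 6.97 to 7.22), the Bdnf probe set 1368678_at (7.74), Per2 (11.08), Cacng8 (8.53) and Fezf2 (8.89), and low for Ptk2 (10.27) and Tet1 (7.5). Without it the differences of Cacng7, Per2, Cacng8 and Fezf2 were 0.22, 0.11, 0.12 and 0.07. Limited replicate 7 was low for Cry2 (10.93), and limited replicate 3 for Cox5b (13.63).

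Continuous replicate 3 was low for the matrix genes Lum (7.87) and Mgp (10.63) and for the summed leptomeningeal level, at 14.94 against 15.75 to 16.36 in its group. It was also low for Folr1 (6.28), Myd88 (8.19) and Rps3 (14.16). Without it the differences of Lum and Mgp were -0.25 and -0.03. Choroid plexus markers stood out in limited replicate 9, with a summed level of 15.04, Folr1 at 9.27 and Kcne2 at 8.78, and in continuous replicate 10, with 13.36 and Kcne2 at 7.34. Without limited replicate 9 the difference of the summed level was -0.2.

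Water replicate 2 was low for Penk (13.32), Tac1 (12.15), both Pdyn probe sets (7.8 and 11.22) and Calb2 (8.84), and for the summed levels of medium spiny neuron (15.78), interneuron (13.67) and septal (11.62) markers. Other single values were Toe1 in continuous replicate 4 (8.43), Papolg in continuous replicate 8 (9.75), Itgav 1383880_at in water replicate 5 (6.77), Acss1 in water replicate 6 (11.13), Myo5c and Sv2a in water replicate 9 (7.43 and 10.62) and Drc12 in water replicate 1 (8.56). Continuous replicate 4 scored 20.18 on the second principal component, against -0.54 to 8.64 in its group.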

How the results depend on the processing

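Of 4522 values recomputed under an alternative, 4459 kept their direction and their side of the threshold or stayed within the replicate spread. The 24 genes of smallest p changed sign under 0 alternatives. They were picked by their p on these same arrays, which makes a change of sign unlikely, so this is no independent support. The adjusted count of 1 was 0 with the replicate block (Homer1 1370454_at 0.62, adjusted p = 0.125 in limma), the RNA quality covariate (0.66, 0.129), the array SD covariate (0.61, 0.185), without the 5 arrays apart (0.55, 0.628), with limited replicates 6 and 7 left out (0.55, 0.32) and with 1 probe set per gene, where the brightest stands for Homer1. With the block and only the 20 ethanol arrays it was called (0.62, adjusted p = 0.0226). Leaving out single arrays gave counts of 0 to 3 and Homer1 differences of 0.57 to 0.66 (adjusted p 0.00991 to 0.115), and over the other alternatives adjusted p ranged from 0.00634 to 0.628. Without limited replicate 8 Fam53a passed (-0.22, adjusted p = 0.0172), and 1396854_at passed without continuous replicate 3 or limited replicates 1, 5 or 8 (0.54 to 0.55).

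The unadjusted count of 2022 was 784 with the RNA quality and 558 with the array SD covariate, 922 without the 5 arrays, 1122 with 1 probe set per gene, 676 without limited replicates 6 and 7, 2309 with the replicate block, and 1138 to 2623 over single arrays left out. Its share of higher values, 38.3%, was 44.1% with arrays centred on their medians, 48.5% after quantile normalization, 51.9% with no filter and 26.3% with the stricter filter. Only 2 of 10 limited arrays correlated best with the continuous array of their number.

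Signs reversed with the RNA quality covariate for Homer1 1368319_a_at (-0.03) and Tmem119 (0.01), with array weights for Penk (-0.0), Sox10 (-0.02) and Lum (0.01), with the array SD covariate for Cirbp (0.0) and Vip (0.0), and for Cat without the 5 arrays (0.01) and without 2 limited arrays (0.01). Single arrays left out gave -0.0 to 0.05 for Tac1, -0.03 to 0.21 for Mgp and -0.0 to 0.13 for Col6a1. The cause of these changes was not tested. Differences near 0.2 can be missed with 10 arrays a group.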

Other observations

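Several of the largest differences in size between limited and continuous access belonged to probe sets of wide spread that were not called in limma. Probe set 1370428_x_at, which carries several gene symbols and is not named here, differed by -1.33 (p = 0.0828), with limited arrays from 4.85 to 10.71 and continuous arrays from 8.95 to 10.64. Its water arrays ranged from 5.19 to 11.09. Probe sets 1381218_at and 1385892_at, with no single symbol here, differed by 0.84 (p = 0.182) and 0.73 (p = 0.134), with limited arrays from 6.03 to 9.87 and from 5.94 to 9.29. Probe set 1379859_at differed by 0.59 (p = 0.56) and ranged from 5.28 to 11.23 in limited and from 5.49 to 10.38 in continuous arrays. Its SD was 2.38 in limited, 2.33 in continuous and 2.43 in water arrays.

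Probe set 1377960_at, which has no symbol here, differed by -1.21 (p = 0.0067), with a median of 9.91 in continuous and 9.06 in limited arrays and a lowest limited array of 6.82. Creg2, a secreted glycoprotein gene of brain, differed by -0.57 on 1396060_at (p = 0.0279), with continuous arrays from 8.15 to 8.93 and limited arrays from 5.94 to 8.95. Its medians, 8.41 and 8.19, lay closer than its means. These probe sets were picked after their values were seen.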
